A study of Homo sapiens with 21 samples.

Results

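The genes described are 9 secreted cytokines of the interleukin and colony-stimulating factor (CSF) families: IL1A, IL1B, IL6, IL11, IL24, LIF, CSF1, CSF2 and CSF3. They were taken as a named list, and all 9 were found among the 26475 genes of the table. Each reached at least 339 counts in its highest library, so none was left out, and all 9 were among the 15062 genes tested. Poly-A RNA was sequenced from SK-MEL-147, an established line of human melanoma cells, in 21 libraries, which form 7 groups of 3. One group was untreated, and each of the others received 1 compound. JQ-1 binds the BET bromodomain proteins and TP-472 the bromodomains of BRD9 and BRD7. GSK-591 inhibits the arginine methyltransferase PRMT5, MS023 the type I arginine methyltransferases, GSK-484 the arginine deiminase PADI4, and UNC0642 the EHMT1 and EHMT2 enzymes that methylate histone H3. The sources used here give no dose, treatment time or vehicle, and every library comes from a single cell line.

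Interleukin-1 alpha and beta bind the receptor pair IL1R1 and IL1RAP and activate NF-kB, which in many cells switches on IL6, LIF and the CSF genes. IL-6, IL-11 and LIF signal through receptors that share the IL6ST (gp130) chain and activate JAK kinases and STAT3, whereas CSF1, CSF2 and CSF3 act mainly on myeloid cells that carry their receptors. Cytokine transcripts of this kind are often short-lived, because AU-rich elements in the 3′ UTR recruit decay proteins, and melanoma cells are known to secrete several of them.

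The AU-rich heptamer TATTTAT, read on the transcript strand, was present in the annotated 3′ UTR of all 9 genes, against 30.8% of 19069 genes with a 3′ UTR. CSF2 and IL11 held 7 copies each, LIF 5, IL1B 4, IL1A, IL6 and CSF3 3 each, IL24 2 and CSF1 1. The 30-base windows below hold the most heptamers in the 3 genes that fell furthest with JQ-1, in the most abundant gene (IL1B) and in the gene that fell least (IL24). Capitals mark the heptamer, and sequences are given 5′ to 3′ on the gene's strand of hg38.
CSF2 (chr5:132076075-132076104, plus strand): taaaaTATTTATTTATTTATTTATttaagt
CSF3 (chr17:40016979-40017008, plus strand): atgTATTTATctctatttaaTATTTATgtc
IL6 (chr7:22731925-22731954, plus strand): aagaaaTATTTATattgTATTTATataatg
IL1B (chr2:112829994-112830023, minus strand): gcttcccTATTTATTTATTTATttgtttgt
IL24 (chr1:206903272-206903301, plus strand): gaagattcttgTATTTATtacaactctatt
CSF2 carried 4 of its 7 copies as an overlapping run in a 3′ UTR of 318 bases, and IL24 had 2 copies in 1080 bases, 1 of them in the window. A match describes the letters only, and no decay was measured.

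RefSeq start-site entries (GRCh38.p14) were found for 6 of the 9 genes; LIF, CSF1 and CSF3 had none. The promoter of IL6 and those of CSF2 and IL24 are shown because IL6 and CSF2 fell among the furthest with JQ-1 and IL24 the least. They end just before the RefSeq start site, except that of IL6, which is shortened where an annotated exon begins.
IL6 (chr7:22726950-22727146, plus strand): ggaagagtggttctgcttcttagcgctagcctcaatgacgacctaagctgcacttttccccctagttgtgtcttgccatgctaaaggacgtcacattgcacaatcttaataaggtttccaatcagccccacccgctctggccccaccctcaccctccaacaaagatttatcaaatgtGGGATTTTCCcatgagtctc
CSF2 (chr5:132073539-132073788, plus strand): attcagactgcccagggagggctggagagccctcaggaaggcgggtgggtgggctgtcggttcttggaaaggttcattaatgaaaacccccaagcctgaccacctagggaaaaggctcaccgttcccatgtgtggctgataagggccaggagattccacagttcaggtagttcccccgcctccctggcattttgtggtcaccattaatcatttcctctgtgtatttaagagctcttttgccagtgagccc
IL24 (chr1:206897193-206897442, plus strand): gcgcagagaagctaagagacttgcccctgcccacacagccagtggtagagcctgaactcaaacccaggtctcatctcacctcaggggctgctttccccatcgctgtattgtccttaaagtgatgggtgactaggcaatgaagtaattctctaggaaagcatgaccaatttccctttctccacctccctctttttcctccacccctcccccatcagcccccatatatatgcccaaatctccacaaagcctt
Capitals in IL6 mark a match to the NF-kB consensus. Both strands of 250 bases before each start site were searched for that consensus, for the AP-1 motif TGANTCA and for TATAAA, which were present in 9.96%, 6.57% and 10.7% of 35116 promoters of the same length. Among the 6 genes the NF-kB match was found in IL6, the AP-1 match in IL1A and IL11, and TATAAA in IL1A. IL1A had more than 1 start-site entry. In its window from 112784494 the AP-1 match began at -12 and TATAAA at -239 from the start site. In its window from 112784401 AP-1 matches began at -105 and -55, without TATAAA. The windows overlap, and the match at -105 is the same site as that at -12 in the other window. All of these AP-1 matches lie inside the annotated gene (112773915 to 112784590). No match says only that these letters were not in these windows.

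In untreated cells the transcripts spanned a wide range. Levels are CPM, the count divided by the TMM-adjusted library total in units of 1e6 counts, and levels of the 9 genes are compared with each other per kilobase of transcript. IL1B was the most abundant per length at 612 CPM per kb, followed by IL24 at 262, LIF at 102, IL1A at 75.2 and IL11 at 35.7. IL6 stood at 10.3 CPM per kb, CSF2 at 8.21, CSF1 at 3.96 and CSF3 at 3.47. IL1B made up 54.9% ± 0.68 (SD, n = 3) of the summed CPM per kb of the 9 genes in untreated cells.

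Libraries held 20978182 to 78776788 summed expected counts (35089548 to 47741066 in untreated cells), and the common coefficient of variation between replicates was 5.09%. The labels call the replicates biological without saying that they were cultured separately, so a p-value covers the spread between these samples alone, and that spread may be technical. Untreated libraries stood apart in base composition: log2 CPM changed by -0.188 to -0.102 per 10 percentage points of transcript GC in the 3 untreated libraries and by -0.0405 to 0.132 in the 18 treated ones. Of the melanocyte lineage markers 2 of 8 reached 1 CPM: SOX10 averaged 362 CPM in untreated cells and 595 CPM with JQ-1, MITF 12.8 and 18.8 CPM, and PMEL, MLANA, TYR, TYRP1, DCT and S100B stayed below 1 CPM. All 6 markers of dedifferentiated melanoma were above 1 CPM, and they split with JQ-1. NGFR averaged 116 CPM in untreated cells and 303 CPM with JQ-1 and AXL 1847 and 2050.3 CPM, both called higher by edgeR, whereas WNT5A (102 and 24.6 CPM), SOX9 (38.6 and 20.8 CPM) and ZEB1 (85.1 and 58.9 CPM) were called lower and EGFR (62.2 and 54.7 CPM) was not called. Of the leukocyte markers 1 of 8, CD68, reached 1 CPM and made up nearly all of their sum, which was 127 to 145 CPM in untreated cells and 153 to 159 CPM with JQ-1. CD14 averaged 0.632 CPM in untreated cells and 0.0855 CPM with JQ-1 and ITGAM 0.131 and 0.00918 CPM, and PTPRC peaked at 0.0748 CPM. Fibroblast and endothelial markers summed to 8.78 to 10.4 CPM in untreated cells and 2.07 to 2.57 CPM with JQ-1, with DCN at 0. The part of these marker changes in the results was not tested.

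JQ-1 against untreated cells asked what inhibition of BET proteins does to these transcripts. All 9 fell, by amounts from under 1.2-fold (IL24) to a near loss of the transcript (CSF2 and CSF3). All 9 were called at an adjusted p under 0.05 by edgeR's quasi-likelihood test with Benjamini-Hochberg adjustment, against a background of 37.6% of genes called lower with JQ-1 and 73.3% called in either direction. Their JQ-1 libraries also lay below the untreated ones without overlap for all 9, as they did for 38.0% of all genes tested. The median log2 fold change of the 9 was -2.48, against -0.0064 over all genes tested. TMM scaling itself holds the median of all genes near 0. With total-count scaling the medians were -2.62 and -0.15. Bulk RNA does not tell fewer cells of a type from less RNA per cell.

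**Figure D1:**
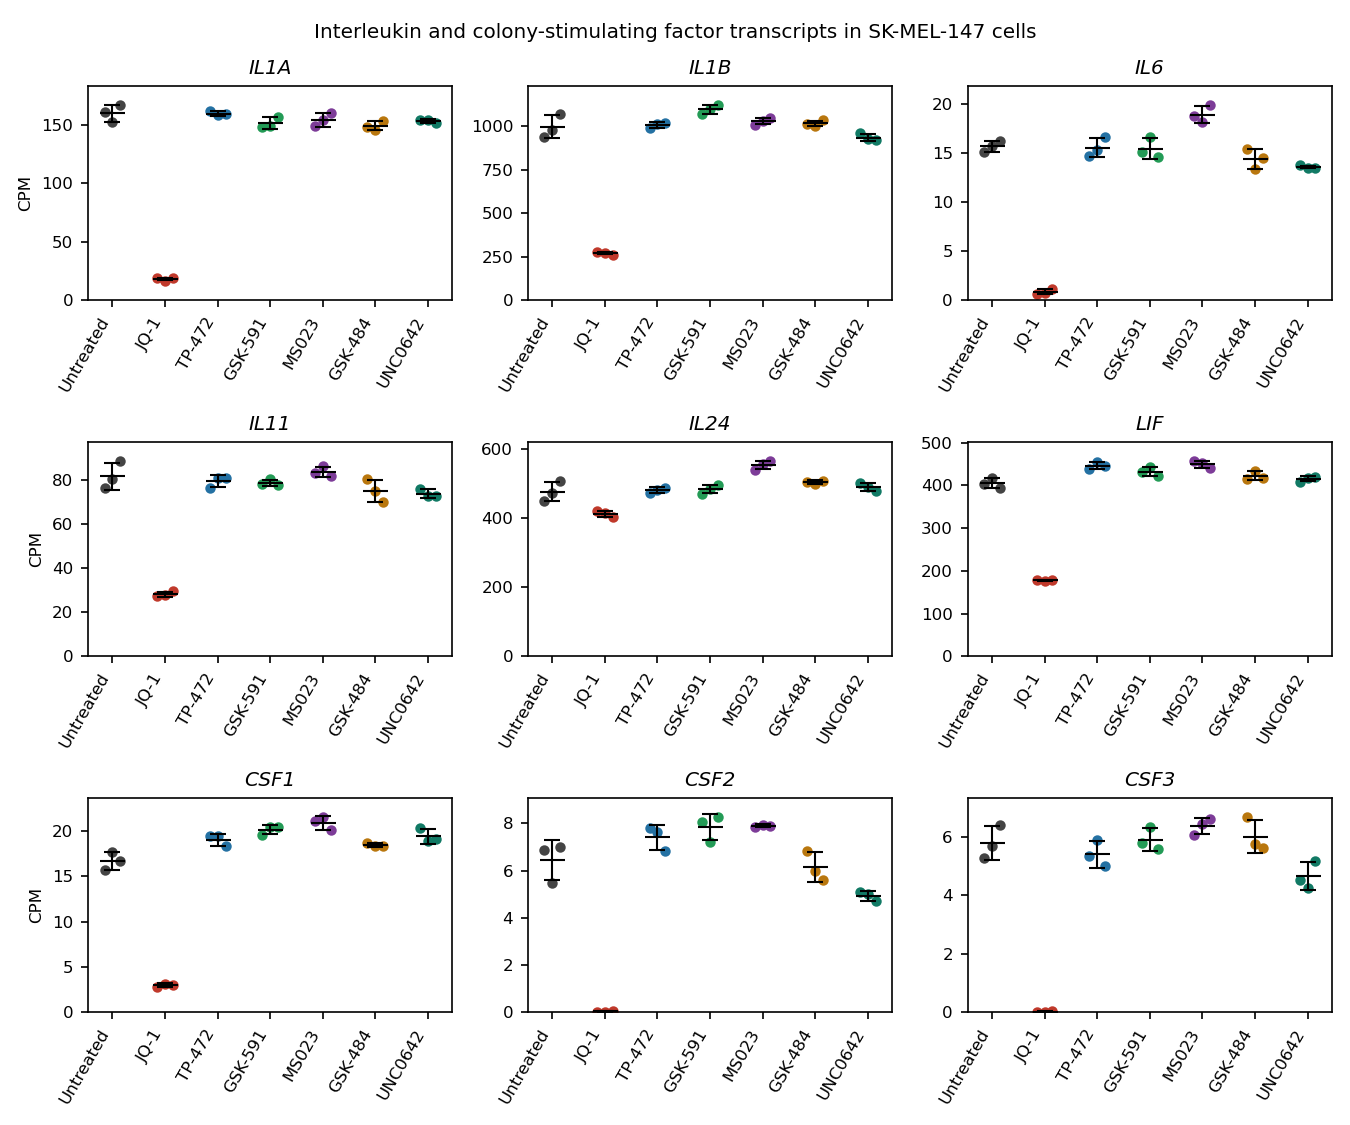
CPM of each gene (vertical axes, linear, from 0) in the 3 libraries of each of the 7 groups (points), with the mean and SD (bars). JQ-1 libraries lay below those of every other group for all 9 genes, as for 28.8% of all genes tested, with IL24 the closest, at 403 to 420 CPM against 450 or more elsewhere.

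Among the colony-stimulating factors, CSF3, which drives neutrophil production, held 5.28, 5.71 and 6.41 CPM in the untreated libraries and 0, 0.028 and 0.0344 CPM in the JQ-1 libraries. That is 721 counts in untreated cells against 2 with JQ-1. Adjusted for the TMM-adjusted library totals, the ratio was 292 (95% interval 80.4 to 2412, exact and for counting error only). CSF2, the granulocyte-macrophage factor, held 6.89, 5.49 and 7.01 CPM in untreated and 0.0275, 0.028 and 0.0688 CPM in JQ-1 libraries. Its 815 counts fell to 4, a ratio of 165 (64.1 to 606) adjusted in the same way, and neither gene's JQ-1 libraries came near the untreated ones. The fitted log2 fold changes were -7.98 (SE 0.28) for CSF3 and -7.25 (SE 0.24) for CSF2, at places 6 and 12 from the lowest of 15062 genes. For counts this low they depend on the prior count of the fit. Both SEs were derived from the test statistic and are narrower than the counting intervals above. They understate the uncertainty of these 2 falls. CSF1, the macrophage factor, held 15.7, 17.6 and 16.7 CPM in untreated and 2.78, 3.16 and 3.03 CPM in JQ-1 libraries, a log2 fold change of -2.48 (SE 0.07, adjusted p = 8.6e-19).

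Of the interleukin-1 pair, whose genes lie side by side on chromosome 2 (IL1A at 112773915 to 112784590 and IL1B at 112829751 to 112836903, both on the minus strand of hg38), IL1A fell further. IL1A held 161, 152 and 166 CPM in untreated and 18.8, 16.8 and 19.0 CPM in JQ-1 libraries, a log2 fold change of -3.14 (SE 0.05, adjusted p = 2.3e-23). IL1B held 941, 981 and 1071 CPM in untreated and 279, 275 and 263 CPM in JQ-1 libraries, a log2 fold change of -1.87 (SE 0.04). The groups did not overlap for either gene, and 27.3% of the IL1B level remained with JQ-1 against 11.4% of the IL1A level.

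The members of the gp130 cytokine family differed widely from each other with JQ-1. IL6, the best known of them, held 15.1, 15.7 and 16.2 CPM in untreated and 0.661, 0.783 and 1.17 CPM in JQ-1 libraries, a log2 fold change of -4.19 (SE 0.12, adjusted p = 5.2e-19). IL11, a close relative of IL6, held 76.1, 80.4 and 88.2 CPM in untreated and 27.3, 27.6 and 29.4 CPM in JQ-1 libraries, a log2 fold change of -1.54 (SE 0.06). LIF, named for inhibiting leukemia cells and known for maintaining stem cells, held 402, 417 and 394 CPM in untreated and 178, 176 and 178 CPM in JQ-1 libraries, a log2 fold change of -1.19 (SE 0.03, adjusted p = 2.9e-19). All 3 were lower with no overlap, and JQ-1 left 5.56% of the IL6 level, 34.5% of the IL11 level and 43.8% of the LIF level. IL6 shares its locus with the opposite-strand genes STEAP1B and AC073072.1, and LIF with LIF-AS1 and AC004264.1; no source used here says whether the counting used strand, so reads of these pairs cannot be told apart.

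IL24, a cytokine of the IL-10 family, changed least. It held 450, 474 and 506 CPM in untreated and 420, 415 and 403 CPM in JQ-1 libraries. The groups did not overlap, and the log2 fold change was -0.21 (SE 0.04, adjusted p = 2.5e-05). Its expected counts per gene were fractional in 20 of 21 libraries, so part of its reads was not assigned to this gene alone by the authors' estimate. IL24 stood at place 5746 from the lowest of the 15062 genes, whereas LIF, the next least changed, stood at place 1659. With JQ-1 the order per kilobase changed: IL24 led at 227 CPM per kb, ahead of IL1B at 167, LIF at 44.7, IL11 at 12.3 and IL1A at 8.56.

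**Figure D2:**
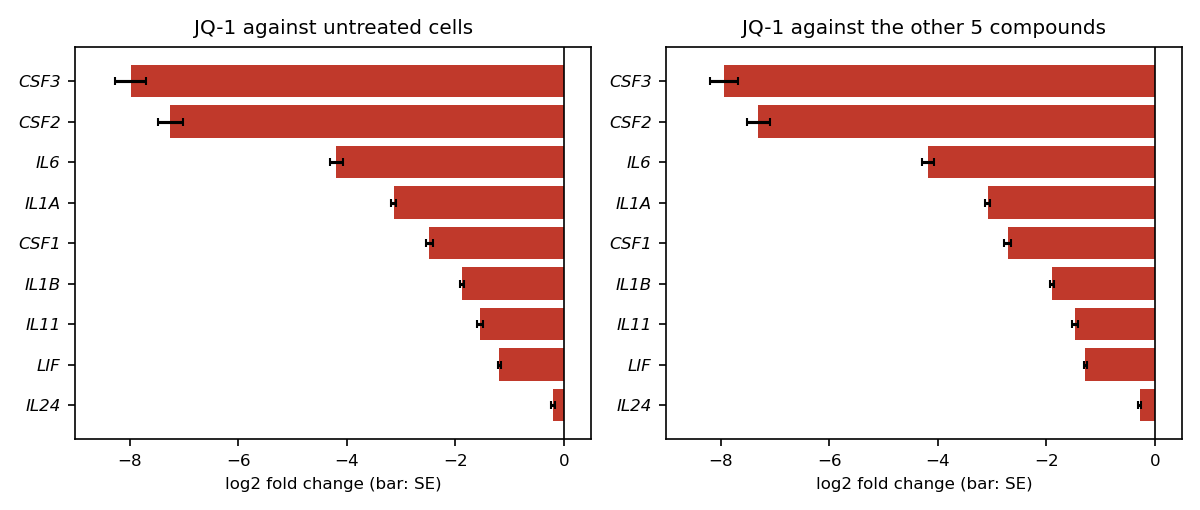
log2 fold change (bars, horizontal axes) with its SE for each gene with JQ-1, against untreated cells (left) and against the mean of the other 5 compounds (right). For CSF3 and CSF2 the SE understates the uncertainty. The order runs from CSF3 and CSF2 to LIF and IL24 on the left, and every bar on both sides is below 0.

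The make-up of the cytokine transcripts shifted accordingly. The 9 genes summed to 2165 ± 100.4 CPM in untreated cells and 912 ± 14.5 CPM with JQ-1 (SD, n = 3). Shares are of the sum of CPM per kb, so that long transcripts do not count for more. IL1B's share was 54.9% ± 0.68 in untreated cells and 36.2% ± 0.39 with JQ-1. IL24's share was 23.6% ± 0.19 in untreated cells and 49.2% ± 0.15 with JQ-1. LIF took 9.18% ± 0.66 and 9.70% ± 0.22, a difference smaller than the spread in untreated cells. In the other 5 groups the summed CPM ran from 2111 to 2327 on average.

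**Figure D3:**
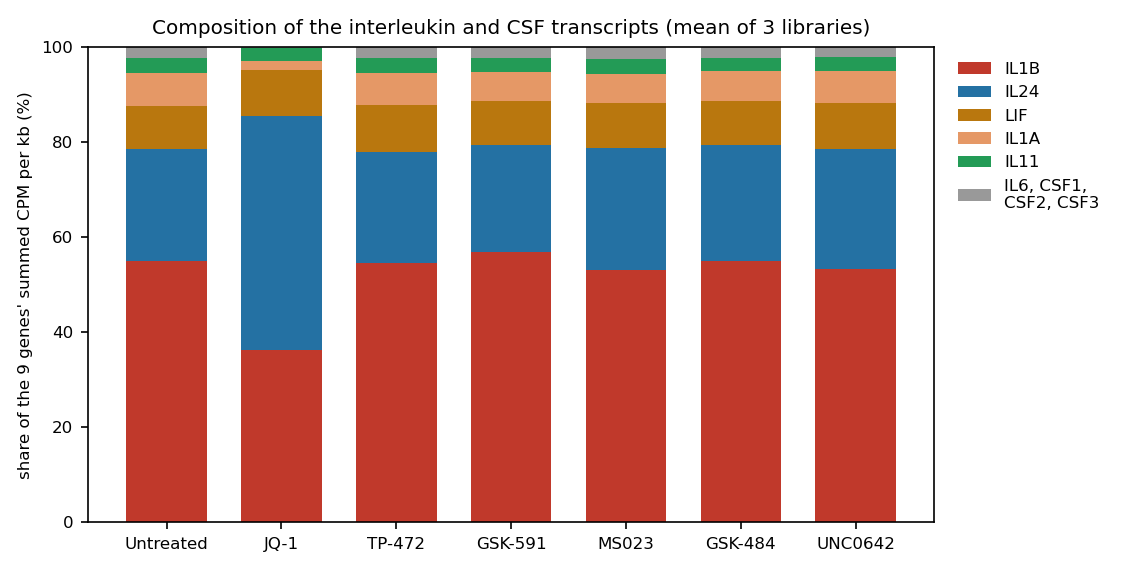
Share of the summed CPM per kb of the 9 genes taken by each gene (vertical axis, percent, mean of 3 libraries) in each group (bars). IL1B took the highest share in untreated cells (54.9%) and IL24 with JQ-1 (49.2%).

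The fall with JQ-1 was also measured without the untreated libraries. Against the mean of the other 5 compounds all 9 genes were again called lower, beside 39.5% of genes called lower in that contrast. The log2 fold changes ran from -7.94 (SE 0.26) for CSF3 and -7.31 (SE 0.22) for CSF2 to -1.29 (SE 0.03) for LIF and -0.28 (SE 0.03) for IL24. For CSF3 and CSF2 the SE again understates the uncertainty, since few counts were seen with JQ-1. TP-472 against JQ-1 compared inhibitors of different bromodomain families. All 9 genes were higher with TP-472, beside 37.5% of genes called higher, by 4.18 (SE 0.12) for IL6, 3.14 (SE 0.05) for IL1A, 1.89 (SE 0.04) for IL1B and 0.22 (SE 0.04, adjusted p = 1.4e-05) for IL24 on the log2 scale.

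With the other 5 compounds the differences from untreated cells were small, none above 1.4-fold. Because the untreated libraries differ from the treated ones in their GC slope, each value was set beside 3 further fits: one after removal of each library's GC trend, one with the other 4 treated groups (JQ-1 left out) as the reference, and one with both. The GC-rich transcripts CSF3 (60.5%), IL11 (60.3%), CSF1 (57.9%) and LIF (57.4%) lie above the median of 49.1% over the genes tested, and IL1A (39.1%) lies below it. CSF1 was called higher against untreated cells with MS023 (log2 0.33), GSK-591 (0.27), UNC0642 (0.22) and TP-472 (0.19), and in none of the 3 further fits with any of them. LIF, called higher with MS023 (0.15), TP-472 (0.14) and GSK-591 (0.09), was likewise not called higher in a further fit. IL11 was called lower with all 5 compounds once the GC trend was removed (-0.28 to -0.22), and was called lower with none of them in either fit that used treated groups as the reference; with MS023 it was called higher there when the GC trend was kept (0.13). IL1A was called higher with MS023 (0.18) and TP-472 (0.17) with the GC trend removed, and in no other fit. Over all genes, calls in either direction with the GC trend removed made up 0.978% for GSK-484, 3.31% for UNC0642, 12.6% for TP-472, 13.7% for GSK-591 and 17.6% for MS023. Against the other treated groups they made up 0.126% for GSK-484, 7.54% for GSK-591, 8.60% for TP-472, 18.9% for MS023 and 27.5% for UNC0642. With both changes the shares were 0.291%, 10.5%, 11.9%, 13.3% and 26.7% in the same order.

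**Figure D4:**
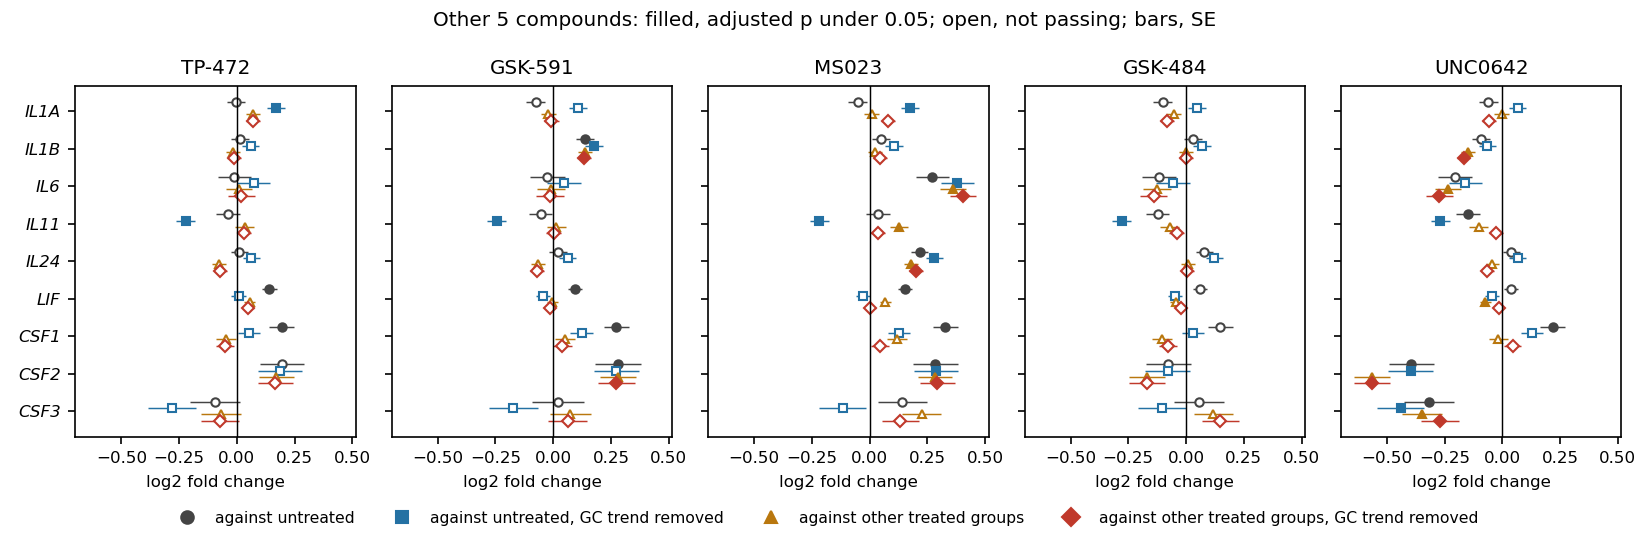
log2 fold change (horizontal axes) with its SE for the 9 genes with each of the 5 compounds other than JQ-1, in 4 fits (symbols); filled symbols had an adjusted p under 0.05. Symbols were filled in all 4 fits for IL6, IL24 and CSF2 with MS023, for CSF2 and CSF3 with UNC0642 and for IL1B with GSK-591.

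With MS023, IL6, IL24 and CSF2 were called higher in all 4 fits. In all, 5 of the 9 genes were called higher against untreated cells (CSF1 and LIF, described above, and these 3), beside 22.0% of genes called higher, and none lower, beside 20.6%. IL6 held 18.8, 18.1 and 19.8 CPM with MS023, above all libraries of every other group (as for 1.61% of all genes tested), a log2 fold change of 0.27 (SE 0.07, adjusted p = 0.0043) against untreated cells and 0.36 (SE 0.06) against the other treated groups. IL24 held 540, 558 and 564 CPM with MS023, above all libraries of every other group as well, a log2 fold change of 0.22 (SE 0.04, adjusted p = 7.3e-05). CSF2 held 7.83, 7.95 and 7.91 CPM with MS023, above the untreated libraries but overlapping those with GSK-591, at 0.28 (SE 0.10, adjusted p = 0.020). That call for CSF2 was lost without MS023 replicate 2 or untreated replicate 2, with a highest adjusted p of 0.13. The 4 genes not called had intervals of 2 SE that ran from -0.13 to 0.36 between them on the log2 scale.

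With GSK-591, IL1B was higher. Its libraries held 1072, 1102 and 1121 CPM, above all libraries of every other group (as for 0.890% of all genes tested), and the log2 fold change against untreated cells was 0.14 (SE 0.04, adjusted p = 0.0080). The call was made in all 4 fits and was lost without untreated replicate 1 (adjusted p = 0.062) and when only GSK-591 and untreated libraries were fitted (adjusted p = 0.0663). In all, 4 genes were called higher (CSF1, CSF2, IL1B and LIF), beside 18.1% of genes called higher, and none lower, beside 14.8%. CSF2 held 8.05, 7.22 and 8.25 CPM with GSK-591, a log2 fold change of 0.28 (SE 0.10, adjusted p = 0.032) that missed the threshold with the GC trend removed (adjusted p = 0.069). Without GSK-591 replicate 1 or 3 or untreated replicate 2 that call for CSF2 was lost too, with a highest adjusted p of 0.18.

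The direct comparison of GSK-591 with MS023, inhibitors of different classes of arginine methyltransferase, called 2 of the 9 genes lower with GSK-591 and none higher, beside 4.46% of all genes called lower. IL6 was lower by 0.30 on the log2 scale (-0.30, SE 0.07, adjusted p = 0.014) and IL24 by 0.20 (-0.20, SE 0.04, adjusted p = 0.0018). The IL6 call was lost without GSK-591 replicate 3 or MS023 replicate 3 (highest adjusted p 0.083). CSF2 did not differ between them in this test, at -0.0029 (SE 0.10), which leaves a difference of up to about 2 SE either way.

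With UNC0642, CSF2 and CSF3 were lower. CSF2 held 5.10, 5.01 and 4.70 CPM, below all libraries of every group but JQ-1 (as for 0.817% of all genes tested), a log2 fold change of -0.39 (SE 0.10, adjusted p = 0.0095) against untreated cells and -0.57 (SE 0.08) against the other treated groups. CSF3 held 4.54, 4.24 and 5.19 CPM against 5.28, 5.71 and 6.41 CPM in untreated cells, a log2 fold change of -0.32 (SE 0.11, adjusted p = 0.047). Both were called in all 4 fits. The CSF2 call was lost without UNC0642 replicate 3 or untreated replicate 3 (highest adjusted p 0.057), and the CSF3 call without UNC0642 replicate 1 or 2 or untreated replicate 2 or 3 (highest adjusted p 0.22). In all, 3 genes were called lower with UNC0642 (CSF2, CSF3 and IL11), beside 7.54% of genes called lower, and 1, CSF1, higher, beside 8.71% called higher. Fitted on the UNC0642 and untreated libraries alone, CSF2 was still called (adjusted p = 0.046) and IL6 was added (0.039), while CSF3 (0.092), IL11 (0.090) and CSF1 (0.056) were not called.

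IL6 held 13.7, 13.5 and 13.5 CPM with UNC0642 against 15.1, 15.7 and 16.2 CPM in untreated cells, at -0.21 (SE 0.07, adjusted p = 0.056). IL6 was called lower against the other treated groups (-0.24, SE 0.06, adjusted p = 0.0053). So were IL1B (-0.15, SE 0.03, adjusted p = 0.0015) and LIF (-0.07, SE 0.02, adjusted p = 0.030), besides CSF2 and CSF3. Over all genes 2006 of 15062 were called lower in that fit. With the GC trend removed as well, IL6 and IL1B were still called (adjusted p = 0.0016 and 0.00046). LIF was not called then (-0.016, adjusted p = 0.67), and it gave 0.04 against untreated cells. UNC0642 had the lowest mean of the groups other than JQ-1 for IL1B, IL6, IL11, CSF2 and CSF3, and its range overlapped that of the next group for all of these but CSF2. IL11 held 75.8, 72.3 and 72.6 CPM with UNC0642, at -0.15 (SE 0.05, adjusted p = 0.048) against untreated cells, and was not called against the other treated groups (adjusted p = 0.060).

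TP-472 and GSK-484 gave the fewest calls. With TP-472, 2 of the 9 genes were called higher (CSF1 and LIF), beside 17.3% of genes called higher, and none lower, beside 14.5%. Neither call was made against the other treated groups. The 7 genes not called had intervals of 2 SE from -0.31 to 0.39 between them. With GSK-484, 0 of the 9 were called by edgeR, beside 19.1% of genes called in either direction. Of the 9, 4 had an unadjusted p under 0.05 in edgeR. The share of all genes with such a p was not counted, but is at least the 19.1% called. DESeq2 called 1 of the 9, beside 3260 of 15061 genes. The intervals of 2 SE for these 9 ran from -0.27 to 0.27.

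Ranked by mean level, JQ-1 was the lowest group for all 9 genes and did not overlap the next, as for 28.8% of all genes tested. MS023 was the highest for IL6, IL11, IL24, LIF, CSF1, CSF2 and CSF3, overlapping the next group for all of these but IL6 and IL24. The share of all genes for which MS023 ranked highest was not counted. The GC-rich IL11, LIF, CSF1 and CSF3 were not called with MS023 by edgeR against the other treated groups with the GC trend removed. Their adjusted p there was 0.52, 0.96, 0.48 and 0.30. GSK-591 was the highest for IL1B and did not overlap the next, and untreated cells were the highest for IL1A, overlapping the next. Between the ends, neighbouring groups overlapped for every gene, except that all 5 compounds other than JQ-1 stood above untreated cells for CSF1 and that GSK-484 stood above UNC0642 for CSF2. No share of all genes was counted for either of these separations. That of CSF1 is from the untreated libraries, which differ from the treated ones in their GC slope. CSF1 was called with none of these 5 compounds once the GC trend was removed, treated groups were the reference, or both.

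Over the 21 libraries the log2 CPM of the 8 genes other than IL24 moved together, with Pearson correlations of 0.984 to 0.996 over 28 pairs, and IL24 followed them at 0.772 to 0.808. These values mostly restate the distance of the 3 JQ-1 libraries, which all pairs share. Over the 18 libraries without JQ-1 the correlations of all 36 pairs ran from -0.363 to 0.75, with a median of 0.345. The genes most like a given one over 21 libraries were CSF3 (0.996) and CSF2 (0.995) for IL6, IL6 (0.994) for IL11, WSB2 (0.998) for CSF3, DBNDD2 (0.996) for CSF2 and SLC37A2 (0.997) for CSF1. Likewise VEGFA (0.998) was most like LIF, PRC1 (0.997) most like IL1A, POU2F2 (0.998) most like IL1B and HLA-E (0.934) most like IL24. Without JQ-1, HLA-E was again the most like IL24 (0.891), while ANXA1 (0.941) was the most like IL1B, RBM3 (0.897) the most like IL6 and TNIP1 (0.914) the most like CSF1.

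Receptors for these cytokines were present unevenly. In untreated cells the shared chain IL6ST averaged 164 CPM, the partner OSMR 140 CPM and the IL-1 co-receptor IL1RAP 107 CPM, values not adjusted for length and so not ranked. Receptors of the CSFs were at or near 0: CSF2RB had no counts in any library, CSF3R had 8 in all, and CSF1R peaked at 0.76 CPM. Other listed receptors were low too: IL20RA had 2 counts in all, and IL1R2, IL22RA1 and IL20RB peaked at 0.528, 0.916 and 1.07 CPM. With JQ-1, 5 of the 11 receptor genes tested were lower and 2 higher (of 15 listed; median log2 fold change -0.08), beside 37.6% and 35.7% of all genes; against the other 5 compounds 5 were lower and 5 higher. IL1R1, the signalling receptor for IL-1, fell from 4.69 ± 0.15 CPM to 1.17 ± 0.253 CPM (SD, n = 3, edgeR adjusted p = 4.5e-11) and IL1R2, a decoy receptor, gave a log2 fold change of -3.73 (SE 1.2) from very few counts, while IL11RA rose by 0.85 (SE 0.10) and LIFR by 0.76 (SE 0.09). IL6ST gave -0.02 (SE 0.07) and OSMR -0.02 (SE 0.05), neither called. Against untreated cells, 0 receptors were called higher and 4 lower with GSK-591 (beside 18.1% and 14.8% of all genes), 1 and 4 with MS023 (22.0% and 20.6%), 0 and 5 with TP-472 (17.3% and 14.5%), 1 and 2 with GSK-484 (11.4% and 7.66%) and 0 and 1 with UNC0642 (8.71% and 7.54%). None of these calls was made in all 4 fits. IL6ST and LIFR were lower against untreated cells with TP-472, GSK-591, MS023 and GSK-484 (IL6ST -0.30, -0.30, -0.30 and -0.28) and were called with none of these against the other treated groups.

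**Figure D5:**
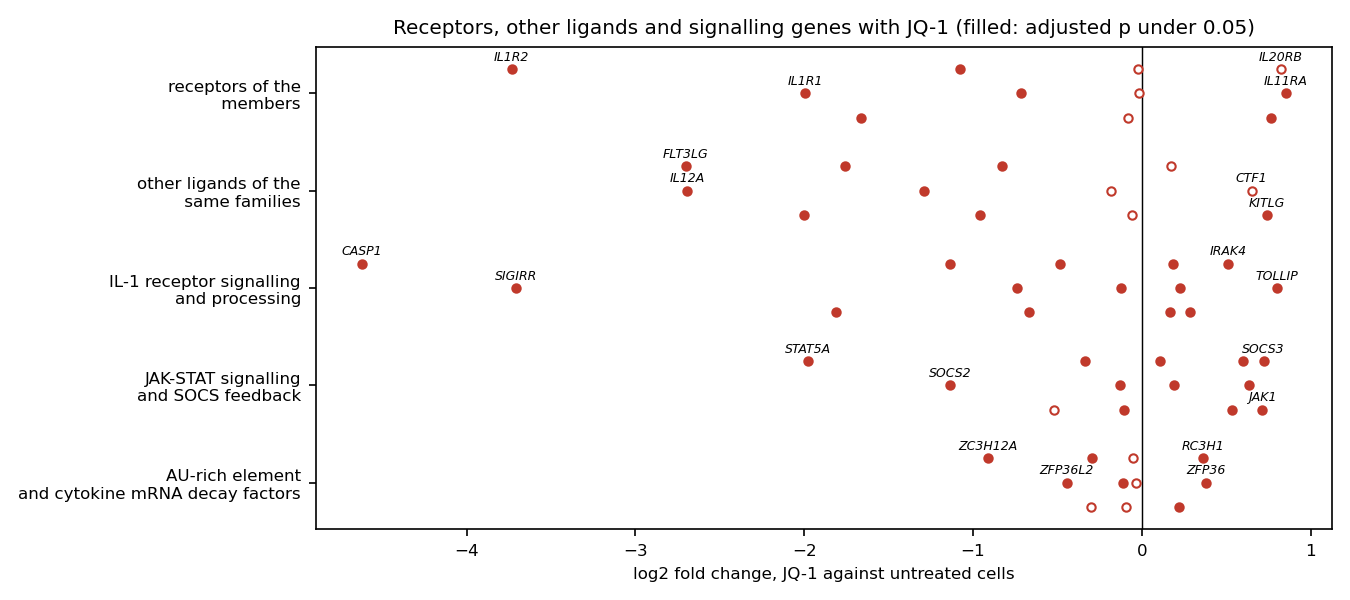
log2 fold change with JQ-1 against untreated cells (horizontal axis) of the tested genes in 5 lists of receptors, ligands, signalling and mRNA decay genes (rows); filled points had an adjusted p under 0.05, and the 2 outermost genes at each end of a list are named. CASP1, IL1R2 and SIGIRR lie furthest left, and IL11RA, IL20RB and TOLLIP furthest right.

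Of the genes that carry or process the IL-1 signal, all 14 tested were called with JQ-1: 8 fell and 6 rose (of 15 listed; median -0.30), beside 73.3% of all genes called in either direction. CASP1, which cleaves the IL-1 beta precursor, gave a log2 fold change of -4.62 (SE 0.58) from a highest level of 1.68 CPM, and SIGIRR, a negative regulator, -3.71 (SE 0.43). TOLLIP, an inhibitor of IL-1 receptor signalling, rose by 0.80 (SE 0.05), and the kinase gene IRAK4 rose by 0.51 (SE 0.07). Against untreated cells, the same list gave 8 genes higher and 1 lower with GSK-591, 6 and 3 with MS023, 5 and 1 with GSK-484, 4 and 1 with TP-472 and 2 and 0 with UNC0642, to be read against the shares of all genes given for the receptors. Most of these calls were lost with the GC trend removed, when the counts were 3 and 0, 4 and 0, 1 and 0, 0 and 0, and 0 and 0 in the same order. Over all genes, calls in either direction in that fit made up 13.7%, 17.6%, 0.978%, 12.6% and 3.31%. With GSK-591, CAPN1 went from 0.25 to 0.06 (adjusted p = 0.24) and TAB1 from 0.23 to 0.05 (adjusted p = 0.58), and MAP3K7 turned from -0.10 to 0.11 (adjusted p = 0.040); with MS023, IRAK1 went from 0.29 to -0.03. Calls in all 4 fits were higher CAPN2 and IRAK2 with GSK-591 and higher CAPN1 with MS023. CAPN1 encodes a calpain, a protease family that processes the IL-1 alpha precursor, and its log2 fold change with MS023 was 0.39 (SE 0.04) against untreated cells and 0.13 with the GC trend removed.

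Of the JAK, STAT and SOCS genes, 7 rose and 5 fell with JQ-1 among 13 tested (of 14 listed; median 0.11), beside 35.7% of all genes called higher and 37.6% lower. SOCS3, a feedback inhibitor of gp130 signalling, rose by 0.72 (SE 0.05) and JAK1 by 0.71 (SE 0.04), while STAT5A gave a log2 fold change of -1.98 (SE 0.16) and SOCS2 of -1.13 (SE 0.08). Against untreated cells, MS023 gave 4 genes of this list higher and 4 lower, beside 22.0% and 20.6% of all genes. GSK-591 gave 3 and 2 (18.1% and 14.8%) and GSK-484 3 and 1 (11.4% and 7.66%). TP-472 gave 1 and 3 (17.3% and 14.5%) and UNC0642 1 and 0 (8.71% and 7.54%). With the GC trend removed 0 were higher with any of them, and 2, 1, 0, 1 and 0 were lower in the same order. Calls in either direction then made up 17.6%, 13.7%, 0.978%, 12.6% and 3.31% of all genes. TYK2, one of the JAK kinases, went from 0.34 to 0.07 (adjusted p = 0.22) with MS023, from 0.23 to 0.03 with GSK-591 and from 0.24 to 0.04 with TP-472, and SOCS3 from 0.24 to 0.02 with GSK-591. STAT5B, lower with MS023, was the only gene of the list called in all 4 fits with any of these 5 compounds, at -0.24 (SE 0.04) against untreated cells.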

How the data were processed

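The authors deposited unscaled expected counts per gene from RSEM. Per the submitters' processing notes the build was hg38 and the tools were RSEM 1.2.15 and Bowtie2 2.1.0, while the sources used here name no annotation, strand setting or read filter. Expected counts were rounded, genes were kept by edgeR 4.0.16 (filterByExpr with a total count of at least 15 and a minimum count of 10), TMM factors were computed, and all 21 libraries were fitted with group as the only term. The two-sided quasi-likelihood test was applied to 9 comparisons, Benjamini-Hochberg adjusted over 15062 genes, with calls under 0.05. The SE of a log2 fold change was taken as its size divided by the square root of the quasi-likelihood F statistic. The prior count was 0.125. The 9 genes, 5 pathway lists, 4 marker lists and alternatives were chosen with earlier results of these data known. Every one of the 9 genes is named. Of each pathway list, up to 2 called genes per direction and compound are named by the size of their change. Genes named for a call in all 4 fits (CAPN2, IRAK2, ELAVL1) and for their level (IL6ST, OSMR, IL1RAP, CSF1R, CSF2RB, CSF3R, IL20RA, IL20RB, IL22RA1, IL10, IL19, IL20, IL3, IL5, IL1RN) were chosen after their values were seen. For likeness, 3 genes per member were found over 21 and over 18 libraries, and the text gives part of them.

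Alternatives were DESeq2 1.42.0, RLE and total-count scaling, no filter, a replicate block, only the groups compared, removal of each library's GC trend (loess, span 0.3, 4 iterations, on log2 CPM with prior count 2 and the GC of GENCODE 29 transcripts, known for 93.7% of genes tested), the other treated groups as reference, both together, and leaving out each replicate. Kilobases are those of the longest coding transcript. Chi-square per degree of freedom between replicates of a group was 3.52 to 59.9 over 21 pairs, and 0 pairs were identical. The fit was also run on simulated counts, drawn with the common dispersion for every gene and without a GC trend. That run does not bear on calls that depend on the GC trend.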

Additional observations from a re-analysis of the deposited data

How the results depend on the processing

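All 9 genes were called lower with JQ-1 than in untreated cells or with the other 5 compounds, and higher with TP-472 than with JQ-1, under every alternative run and without each replicate in turn. IL24, the smallest of these changes against untreated cells, ran from -0.353 to -0.165 with a highest adjusted p of 0.00127. Total-count scaling moved the median of all genes with JQ-1 from -0.0064 to -0.15 and the share of called genes that were higher from 48.7% to 37.3%. For the other compounds the number of genes called moved more. GSK-484 (0) gave 1 with DESeq2, 1 with the GC trend removed and 2 with total-count scaling. GSK-591 (4) gave 2 with the GC trend removed, without a filter, with total-count scaling and with the other treated groups as reference (with or without the GC trend), and 1 with only the groups compared (CSF2, IL1B and LIF not called). MS023 (5) gave 3 with the other treated groups as reference and the GC trend removed. TP-472 (2) gave 1 without a filter and 1 with only the groups compared (CSF1 not called). Against the other treated groups it gave 0, with and without the GC trend. There 4 (and 3 with the GC trend removed) had an unadjusted p under 0.05, for which no share of all genes was counted. UNC0642 (4) gave 2 with only the groups compared. Over all genes that setting called 9 of 14430 with GSK-484 (2872 of 15062 in the main fit) and 1538 of 14627 with UNC0642 (2448). It called 3767 of 14357 with GSK-591 (4952) and 3905 of 14443 with TP-472 (4788). Without each replicate in turn the counts ran from 0 to 2 for GSK-484, 2 to 3 for GSK-591, 4 to 6 for MS023, 1 to 2 for TP-472, 1 to 5 for UNC0642 and 1 to 2 for GSK-591 against MS023. Over all genes (15247 to 15265 tested) the calls then ran from 924 to 3163, 3213 to 4915 and 4914 to 6152 for the first 3 of these. For the rest, in the same order, they ran from 2789 to 4927, 1109 to 2431 and 808 to 1181.

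Replicate numbers did not pair the samples: same-numbered libraries of different groups correlated at -0.16 to 0.137 in their deviations from the group means, and 4 of 21 libraries correlated best with their own number. With the replicate number as a block UNC0642 gave 2 calls in place of 4, without CSF3 (adjusted p = 0.060) and IL11 (0.0625), and no other call among the 9 genes changed.

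Of the 45 log2 fold changes of the 9 genes with the 5 compounds, 25 changed sign between the 4 fits. Of these, 15 were called in none of the 4; their values lay between -0.173 (CSF3 with GSK-591) and 0.225 (CSF3 with MS023), and included CSF1 with GSK-484 (-0.104 to 0.149), IL1A with GSK-591 (-0.077 to 0.106) and IL24 with TP-472 (-0.078 to 0.062). The other 10, called in at least 1 fit, follow; the sign changed from a value called against untreated cells only for LIF (GSK-591, MS023) and CSF1 (TP-472, UNC0642). With the GC trend removed, LIF gave -0.045 with GSK-591, -0.0301 with MS023 and -0.0448 with UNC0642, IL11 gave -0.218 with MS023, and IL1A gave 0.175 with MS023 and 0.17 with TP-472. With the other treated groups as reference, IL11 gave 0.0139 with GSK-591 and 0.0334 with TP-472, LIF gave -0.00431 with GSK-591 and -0.0743 with UNC0642, IL1A gave 0.00873 with MS023 and 0.0696 with TP-472, and CSF1 gave -0.0472 with TP-472 and -0.0183 with UNC0642. With both, IL11 gave 0.00191 with GSK-591 and 0.0309 with TP-472, LIF gave -0.016 with GSK-591 and -0.0158 with UNC0642, IL1A gave 0.078 with MS023 and 0.0717 with TP-472, and CSF1 gave -0.0508 with TP-472. Total-count scaling gave -0.0172 for IL11 with MS023. Without 1 replicate, IL11 ran from -0.102 to 0.000731 with GSK-591, from -0.00786 to 0.0951 with MS023 and from -0.0853 to 0.0177 with TP-472, and IL1A from -0.0368 to 0.0234 with TP-472. The causes were not tested. Depth limits CSF2 and CSF3 with JQ-1, which rest on 4 and 2 counts.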

Other observations

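Of 26 other ligands of the same families, 12 were expressed enough to be tested. With JQ-1 7 of them fell, 1 rose and 4 were not called, beside 37.6% of all genes called lower and 35.7% higher. Their median log2 fold change was -0.89, against -0.0064 over all genes, which TMM scaling holds near 0. FLT3LG, a growth factor for dendritic cell precursors, gave a log2 fold change of -2.70 (SE 0.16) and IL12A, a subunit of interleukin-12, of -2.69 (SE 0.34), while KITLG, the ligand of the melanocyte receptor KIT, rose by 0.74 (SE 0.09). The relatives of IL24 in the IL-10 family were barely detected: IL10 peaked at 0.0277 CPM, IL19 at 0.0549 CPM and IL20 at 0.106 CPM. IL3 and IL5, which share a receptor chain with CSF2, had no counts in any library, and IL1RN, the natural antagonist of IL-1, had 12 in all. Among the tested ligands TP-472 and GSK-591 each gave 2 genes higher and 0 lower against untreated cells (beside 17.3% and 18.1% of all genes called higher), MS023 gave 2 and 2 (22.0% higher, 20.6% lower), GSK-484 gave 2 and 1 (11.4% and 7.66%), and UNC0642 gave 1 and 0 (8.71% higher). None was called in all 4 fits. FLT3LG and IL32 were the genes called higher, and against the other treated groups FLT3LG gave 0.01 with TP-472 (adjusted p = 0.99), 0.03 with MS023 (0.82) and 0.05 with GSK-484 (0.85), and IL32 gave -0.0030 with TP-472 and -0.0066 with GSK-591.

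Of 11 genes for factors that bind AU-rich or other decay elements of cytokine transcripts, 3 rose and 4 fell with JQ-1 (median -0.09), beside the same shares of all genes. ZFP36 (tristetraprolin), which promotes decay, rose by 0.38 (SE 0.06) and RC3H1 (roquin) by 0.36 (SE 0.08), while ZC3H12A (regnase-1), a nuclease that cleaves the IL6 transcript, gave -0.91 (SE 0.06) and ZFP36L2 -0.44 (SE 0.05). Against untreated cells, MS023 gave 3 higher and 3 lower, GSK-591 3 and 0, TP-472 1 and 5, GSK-484 1 and 0 and UNC0642 0 and 2, beside the shares of all genes given for the ligands (14.8% lower with GSK-591, 14.5% with TP-472 and 7.54% with UNC0642). With MS023, ZC3H12A gave 0.40 (SE 0.06) and ZFP36 0.31 (SE 0.06), and with the GC trend removed 0.13 (adjusted p = 0.094) and 0.06 (adjusted p = 0.51), though both were called in the 2 fits against the other treated groups; RC3H1 went from -0.33 to -0.11 and RC3H2 from -0.37 to -0.18, neither called then. Calls in all 4 fits were higher ELAVL1 and TIAL1 with GSK-591 and lower RC3H1 with UNC0642. RC3H1 gave -0.42 (SE 0.08) with UNC0642 against untreated cells and -0.30 with the GC trend removed.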
